A study of Mus musculus with 12 samples.

Results

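Smn1 and its partners in the assembly of small nuclear ribonucleoproteins (snRNPs) were followed across spinal cords of mice that model severe spinal muscular atrophy (SMA). All probe sets, the groups of short probes that the array reads out as 1 signal, were taken whose annotated gene symbol is one of 10 genes: Smn1, Gemin7, Gemin6, Gemin4, Ddx20, Strap, Prmt5, Clns1a, Phax and Coil. This gave 8 genes of 12393 on the array with a probe set of their own, and 12 probe sets of 22626. Gemin4 has no entry in the platform annotation used here and was not analysed here. The single probe set annotated to Gemin6 lists a pseudogene, Gemin6-ps, as well, so no value is given for Gemin6. A second probe set that lists Coil also lists another transcript and was not used. Of the 12 probe sets, 11 passed the filter on dim signals, and that of Smn1 did not.

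The arrays hold 3 groups of 4, each array from cord taken at 13 days of age. SMA ceftriaxone mice lack intact mouse Smn (mSmn -/-) and received 200 mg/kg ceftriaxone, a beta-lactam antibiotic, daily by intraperitoneal injection from day 5. SMA vehicle mice have the same genotype and received the saline solvent alone. The mice labelled wildtype also received vehicle and are given as mSmn+/-, with a single intact mouse allele. Both vehicle groups are called untreated in other labels. All 3 groups belong to line 4299 on the FVB background and carry the human transgenes SMN2 and SmnΔ7, both given as homozygous. The level of human SMN was not measured here. The null allele (Smn1tm1Msd) is a constitutive one, present in all cells. The labels mention both whole cords and lumbar segments from mice perfused with fixative, and do not settle which was used. Nothing in them gives the sex of the mice.

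As background, the SMN protein forms a complex with the Gemin proteins in the cytoplasm, and this complex places a ring of Sm proteins on each spliceosomal snRNA. Before that step, the snRNA leaves the nucleus through an export adaptor, and a methyltransferase complex modifies the Sm proteins and hands them over. Finished particles return to the nucleus and pass through Cajal bodies. The process runs in every cell type, and motor neurons of the spinal cord are the cells that degenerate in SMA.

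Wildtype replicate 2 stood apart from the other arrays. Its log2 signals correlated at 0.924 to 0.930 with the other wildtype arrays, which correlated at 0.986 to 0.989 among themselves. Markers of thymocytes were bright on it: the 8 measured of 9 summed to a signal of 32836.0, against 90.6 to 464.6 in SMA ceftriaxone, 62.0 to 124.8 in SMA vehicle and 121.1 to 245.0 in the other wildtype arrays. Markers of dividing cells (5 measured of 6) summed to 18928.6 on it, against 3877.2 to 5350.2 on all other arrays. Counts of calls over the members and lists that passed the filter are therefore also given without this array. Xist, a marker of female cells, had signals of 1688.5 to 2216 on the SMA ceftriaxone arrays, of 2343.5, 34.3, 20.9 and 1928.9 on the SMA vehicle arrays and of 49.4, 49.1, 2081.4 and 74.2 on the wildtype arrays. A list taken for spinal cord position (4 measured of 5, Hox genes and the glycine transporter gene Slc6a5) summed to 2264.6 to 2877.1 in SMA ceftriaxone, 3585.8 to 5483.9 in SMA vehicle and 1604.5 to 2031.7 in wildtype arrays. Slc6a5 had only 63.0 to 127.4 over all arrays, so the differences between these sums rest on the Hox genes. The labels number the arrays of a group as separate samples and do not say that each is 1 mouse, so the p-values measure the spread between these samples.

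Smn1 encodes the core protein of the complex, and its signal separated the genotypes on every array. The SMA ceftriaxone arrays had signals of 15.8, 3.3, 6.4 and 3.6, the SMA vehicle arrays 3.6, 3.7, 3.9 and 5.7, and the wildtype arrays 305.7, 414.3, 263.4 and 268.6. The lowest wildtype array was brighter than the brightest array of either SMA group, while the SMA groups overlapped. On the wildtype arrays, 52.8% to 58.7% of all probe sets were dimmer than Smn1, against 5.24% to 15.3% on SMA ceftriaxone and 6.78% to 9.62% on SMA vehicle arrays. Smn1 was thus of middling brightness in cords with 1 intact allele, and among the dimmest probe sets in cords without one. The highest SMA value, on ceftriaxone replicate 1, still had 15.3% of probe sets below it. Whether the SMA signals lie above background was not tested.

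**Figure D1:**
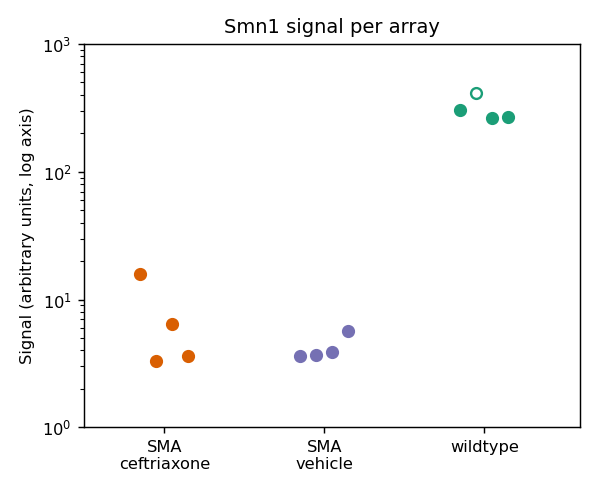
Smn1 signal of each array on a log axis in SMA ceftriaxone, SMA vehicle and wildtype cords (1 point per array; the open circle is wildtype replicate 2). The wildtype arrays lie at 263.4 and above, and the 8 SMA arrays at 15.8 and below.

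The log2 difference of Smn1 was -3.83 ± 0.19 (SE) in SMA ceftriaxone against wildtype cords (limma adjusted p = 2.07e-06) and -4.00 ± 0.19 in SMA vehicle against wildtype cords (limma adjusted p = 6.75e-07). In the same model over all probe sets, 14.8% were called lower in SMA vehicle against wildtype and 0.464% in SMA ceftriaxone against wildtype. The SMA signals are smaller than the offset of 16 added before log2, so these sizes follow the offset and are not measured folds. With an offset of 1 the difference was -5.45 in SMA ceftriaxone and -5.90 in SMA vehicle against wildtype, and with 64 it was -2.39 and -2.45. Between SMA ceftriaxone and SMA vehicle cords the log2 difference was 0.17, with a 95% interval of -0.25 to 0.60, and did not pass (limma adjusted p = 0.589). This size and its interval follow the offset as well. The difference was 0.45 ± 0.41 (SE) with an offset of 1 and 0.06 ± 0.11 with 64, and neither passed (limma adjusted p = 0.494 and 0.777). The probe set reads mouse Smn1, and whether human SMN transcripts bind to it was not tested. Both calls against wildtype passed whichever single array was left out, with differences of -4.07 to -3.87 for SMA vehicle against wildtype and -3.99 to -3.69 for SMA ceftriaxone against wildtype.

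Of the partners, Gemin7, Prmt5, Phax and Coil rose in SMA vehicle cords and were lower again in SMA ceftriaxone cords, each by less than 2-fold. They stand at different steps: snRNA export (Phax), methylation of Sm proteins (Prmt5), the SMN complex itself (Gemin7) and the Cajal body (Coil). For each of the 4 genes, all 4 SMA vehicle arrays lay above every array of both other groups. How many of all probe sets show such a separation was not counted. Of all probe sets that passed the filter, 24.9% were called higher in SMA vehicle against wildtype. In SMA ceftriaxone against SMA vehicle, 17.7% were called lower. Levels of different genes are not compared here, since probe sets differ in brightness.

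Phax is the adaptor that, once phosphorylated, carries newly made snRNAs out of the nucleus. Its signals were 963.0, 1023.1, 1033.3 and 1060.0 in SMA ceftriaxone, 1295.0, 1271.5, 1461.3 and 1516.9 in SMA vehicle, and 1055.1, 989.1, 947.0 and 852.9 in wildtype arrays. The SMA vehicle arrays were all higher, and the other groups overlapped. Phax rose by 0.52 ± 0.08 (log2, SE; 1.44-fold) in SMA vehicle against wildtype (limma adjusted p = 0.000248). Against SMA vehicle it fell by 0.43 ± 0.08 in SMA ceftriaxone cords (limma adjusted p = 0.00168).

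Prmt5 encodes the arginine methyltransferase that symmetrically dimethylates Sm proteins, which raises their affinity for SMN. Its signals were 1315.5, 1184.3, 1334.3 and 1214.4 in SMA ceftriaxone, 1564.0, 1594.1, 1662.9 and 1800.0 in SMA vehicle, and 1174.8, 1286.9, 1031.1 and 1083.8 in wildtype arrays. Prmt5 rose by 0.53 ± 0.08 (log2, SE; 1.44-fold) in SMA vehicle against wildtype (limma adjusted p = 0.00019). It fell by 0.39 ± 0.08 in SMA ceftriaxone against SMA vehicle (limma adjusted p = 0.00307). The highest wildtype signal was that of replicate 2, the array with thymocyte markers. Without that array the SMA ceftriaxone and wildtype arrays no longer overlapped, but their difference of 0.20 did not pass (limma adjusted p = 0.0991).

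Gemin7 is a small Sm-like protein that pairs with Gemin6 inside the SMN complex. Its signals were 612.1, 555.1, 639.9 and 643.8 in SMA ceftriaxone, 907.7, 867.2, 868.7 and 823.6 in SMA vehicle, and 675.4, 620.7, 490.0 and 603.6 in wildtype arrays. The wildtype arrays spread most, with replicate 3 lowest, and the SMA vehicle arrays stayed above 800. Gemin7 rose by 0.53 ± 0.10 (log2, SE; 1.45-fold) in SMA vehicle against wildtype (limma adjusted p = 0.00056). It fell by 0.49 ± 0.10 in SMA ceftriaxone against SMA vehicle (limma adjusted p = 0.00174).

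Coil encodes coilin, the scaffold protein of Cajal bodies. Its signals were 742.5, 601.7, 717.3 and 733.7 in SMA ceftriaxone, 871.5, 860.9, 955.9 and 909.2 in SMA vehicle, and 604.1, 696.2, 572.3 and 618.3 in wildtype arrays. Coil rose by 0.52 ± 0.09 (log2, SE; 1.44-fold) in SMA vehicle against wildtype (limma adjusted p = 0.000351). It fell by 0.36 ± 0.09 in SMA ceftriaxone against SMA vehicle (limma adjusted p = 0.00683). As with Prmt5, the highest wildtype signal was on replicate 2.

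In order of mean signal, each of these 4 genes was highest in SMA vehicle, next in SMA ceftriaxone and lowest in wildtype cords, and SMA ceftriaxone and wildtype did not differ beyond their spread. Gemin7 averaged 613 ± 40.9 in SMA ceftriaxone, 867 ± 34.4 in SMA vehicle and 597 ± 77.9 in wildtype cords (SD, n = 4 each). Coil averaged 699 ± 65.6, 899 ± 43.0 and 623 ± 52.6 in the same groups, Prmt5 1262.1 ± 73.9, 1655.2 ± 105 and 1144.1 ± 112, and Phax 1019.8 ± 41.0, 1386.2 ± 121 and 961 ± 84.7. The log2 differences between SMA ceftriaxone and wildtype, with 95% intervals, were 0.04 (-0.17 to 0.25) for Gemin7, 0.16 (-0.03 to 0.35) for Coil, 0.14 (-0.04 to 0.32) for Prmt5 and 0.09 (-0.10 to 0.27) for Phax. Each interval includes 0, and the upper bounds leave room for a difference of up to 0.35. The 3 comparisons share groups of arrays, so the rise and the fall both rest on the same SMA vehicle arrays.

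**Figure D2:**
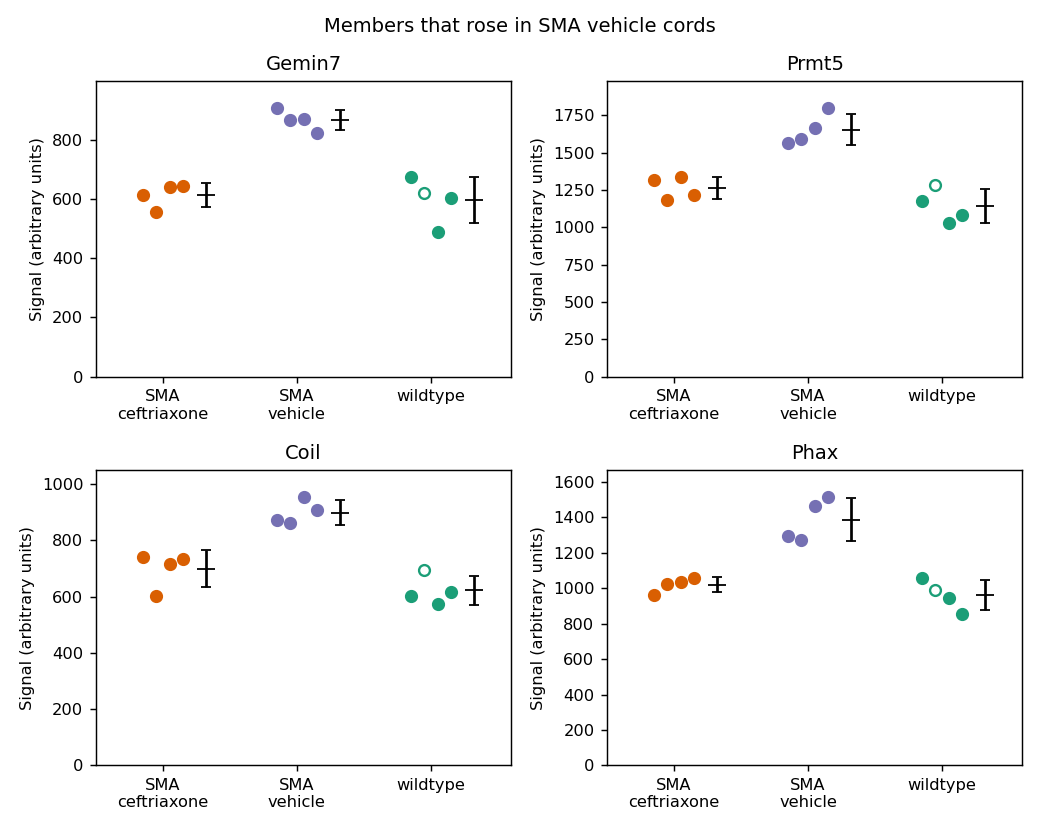
Signal of Gemin7, Prmt5, Coil and Phax on each array in SMA ceftriaxone, SMA vehicle and wildtype cords (points are arrays, bars are mean and SD with n = 4, the open circle is wildtype replicate 2). In each panel the 4 SMA vehicle arrays lie above all others, from 823.6 upward for Gemin7 and from 1271.5 upward for Phax.

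Cell markers moved in the same comparisons. Of all probe sets that passed the filter, 24.9% were called higher and 22.3% lower in SMA vehicle against wildtype. In SMA ceftriaxone against SMA vehicle these shares were 18.3% and 17.7%. Oligodendrocyte markers summed to 78485.6 to 86548.1 in SMA ceftriaxone, 22657.1 to 43650.4 in SMA vehicle and 66432.1 to 105615.0 in wildtype arrays, and 6 of 6 fell in SMA vehicle against wildtype. Immature neuron markers summed to 14212.8 to 17268.7 in SMA ceftriaxone, 22497.4 to 28981.7 in SMA vehicle and 10058.0 to 13316.8 in wildtype arrays, and 4 of 4 rose in SMA vehicle against wildtype. Of 6 neuron markers, 5 rose in SMA vehicle against wildtype, with sums of 18436.6 to 20661.7 in SMA ceftriaxone, 22939.8 to 25912.4 in SMA vehicle and 14693.5 to 21058.1 in wildtype arrays. The lowest wildtype sum was that of replicate 2. The other marker, Snap25, had 9488.9 to 10496.4 in SMA vehicle arrays, against 11940.8, 8685.9, 12900.8 and 12106.7 in wildtype arrays. Without wildtype replicate 2, 5 neuron markers were called higher and 1 lower. Skeletal muscle markers summed to 215.4 to 603.1 in SMA ceftriaxone, 1979.6 to 5188.8 in SMA vehicle and 474.4 to 1248.3 in wildtype arrays. Endothelial markers summed to 1866.4 to 2468.1 in SMA ceftriaxone, 1432.4 to 1945.3 in SMA vehicle and 2036.7 to 2589.8 in wildtype arrays, with 3 of 4 lower in SMA vehicle against wildtype and 3 higher in SMA ceftriaxone against SMA vehicle. Microglial markers summed to 2919.8 to 3463.2 in SMA ceftriaxone, 2157.8 to 2598.3 in SMA vehicle and 2504.9 to 3644.6 in wildtype arrays, with 2 of 4 lower in SMA vehicle against wildtype and 2 higher in SMA ceftriaxone against SMA vehicle. Astrocyte markers summed to 33118.9 to 34801.7 in SMA ceftriaxone, 20751.6 to 25971.0 in SMA vehicle and 22869.8 to 35681.0 in wildtype arrays. Of 5 astrocyte markers, 2 were higher and 2 lower in SMA vehicle against wildtype, and 3 were higher in SMA ceftriaxone against SMA vehicle. Wildtype replicate 2 also gave the lowest wildtype sum for oligodendrocyte, immature neuron, endothelial, microglial and astrocyte markers. Without that array, wildtype sums were 30402.5 to 35681.0 for astrocyte and 2915.2 to 3644.6 for microglial markers, above all SMA vehicle arrays. Astrocyte markers called were then 2 higher and 3 lower (30.9% and 27.5% of all probe sets). Beside the shares of all probe sets, the microglial and astrocyte counts are not a result about those cells. The part of these markers in the rise of the 4 genes was not tested. In bulk tissue, a change in the number of cells of a type and a change in RNA per cell cannot be told apart. Xist signal was high on all SMA ceftriaxone arrays and on 2 of 4 SMA vehicle arrays. With Xist signal as a covariate, the falls in SMA ceftriaxone against SMA vehicle were -0.42 for Gemin7, -0.32 for Coil, -0.36 for Prmt5 and -0.43 for Phax (limma adjusted p = 0.0125, 0.0367, 0.0177 and 0.00834).

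The promoter windows of Gemin7, Coil and Prmt5 are shown because the signals of these genes moved together. They come from RefSeq (GRCm38.p6) and run 5′ to 3′ on the gene's strand, with 250 bases before and 50 after the annotated start. No window is shown for Phax. The window of Gemin7 is chr7:19573294-19573593 on the minus strand, that of Coil is chr11:88973685-88973984 on the plus strand and that of Prmt5 is chr14:54517421-54517720 on the minus strand. Capitals mark matches, on either strand, to the motifs searched. These were the GC box, spelled GGGCGG. The CCAAT box was searched by those letters. The ETS motif was spelled CCGGAAG. The E-box was spelled CACGTG. The cyclic AMP element was spelled TGACGTCA. The NRF1 core was spelled GCATGCGC. The TATA box was spelled TATAAA. No motif is a part of another.
Gemin7: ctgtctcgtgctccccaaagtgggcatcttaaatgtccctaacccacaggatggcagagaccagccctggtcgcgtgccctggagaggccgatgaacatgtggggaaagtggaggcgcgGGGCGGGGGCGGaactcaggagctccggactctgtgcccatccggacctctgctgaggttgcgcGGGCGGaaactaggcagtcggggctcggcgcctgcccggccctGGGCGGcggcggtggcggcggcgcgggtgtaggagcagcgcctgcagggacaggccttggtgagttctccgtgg
Coil: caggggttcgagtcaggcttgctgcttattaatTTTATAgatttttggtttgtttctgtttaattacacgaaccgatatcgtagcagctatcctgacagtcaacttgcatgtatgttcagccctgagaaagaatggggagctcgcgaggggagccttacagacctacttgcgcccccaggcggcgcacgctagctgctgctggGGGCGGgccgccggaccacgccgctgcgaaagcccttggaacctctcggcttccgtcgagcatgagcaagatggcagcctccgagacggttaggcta
Prmt5: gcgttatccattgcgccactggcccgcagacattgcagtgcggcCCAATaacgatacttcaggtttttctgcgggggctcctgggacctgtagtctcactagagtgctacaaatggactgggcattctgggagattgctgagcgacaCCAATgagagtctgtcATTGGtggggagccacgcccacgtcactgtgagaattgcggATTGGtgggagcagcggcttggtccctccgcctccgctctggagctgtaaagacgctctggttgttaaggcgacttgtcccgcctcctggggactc

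Gemin7 has 4 matches to the GC box, Coil has 1, and Prmt5 has 0 of these. Prmt5 has 4 matches to the CCAAT box, and Gemin7 and Coil have 0. Coil also has 1 match to the TATA box. Of 32851 promoter windows of the same length, 35.7% hold the GC box, 37.4% the CCAAT box and 13.6% the TATA box. The ETS motif is in 8.86% of them, the E-box in 7.15%, the cyclic AMP element in 1.79% and the NRF1 core in 2.71%, and none of these is in the 3 windows shown. The GC content is 68.7% for Gemin7, 55.7% for Coil and 58.0% for Prmt5, against a median of 52.7% over all windows. A match describes the letters and is not a site or a cause.

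The remaining partners, Ddx20, Strap and Clns1a, passed in none of the 3 comparisons on any of their probe sets. Ddx20 encodes the DEAD-box RNA helicase of the SMN complex. Its signals were 213.0, 189.4, 267.3 and 267.6 in SMA ceftriaxone, 242.1, 241.4, 267.6 and 237.3 in SMA vehicle, and 201.8, 322.2, 205.1 and 179.9 in wildtype arrays. The highest of all 12 was wildtype replicate 2, and the SMA vehicle arrays lay above the other 3 wildtype arrays. The log2 difference between SMA vehicle and wildtype was 0.15 (95% interval -0.21 to 0.50; limma adjusted p = 0.496), and without wildtype replicate 2 it was 0.31 and passed (limma adjusted p = 0.0444). It also passed with array quality weights, which gave that array little weight (0.31, limma adjusted p = 0.0384).

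Strap encodes a protein with WD repeats that joins the SMN complex through Gemin7. Probe set 1416566_at, the brightest, had signals of 2458.6 to 2685.9 in SMA ceftriaxone, 2604.7 to 3020.9 in SMA vehicle and 2453.3 to 2821.5 in wildtype arrays. Its log2 difference in SMA vehicle against wildtype was 0.12 (95% interval -0.03 to 0.27), that of 1419912_s_at was 0.18 (-0.06 to 0.42) and that of 1419913_at was -0.13 (-0.47 to 0.21). The probe sets thus differed in sign, and all intervals include 0. Without SMA vehicle replicate 3, the array of lowest signal for 1419912_s_at (1229.2), that probe set passed with a difference of 0.28 (limma adjusted p = 0.0434). Averaged over the probe sets, Strap had a difference of 0.06 ± 0.08 (log2, SE; limma adjusted p = 0.603).

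Clns1a encodes the chaperone that holds Sm proteins in the methyltransferase complex before they reach SMN. On 1436935_x_at, signals were 6714.2 to 7550.4 in SMA ceftriaxone, 6571.7 to 6867.8 in SMA vehicle and 7027.8 to 8290.3 in wildtype arrays. All SMA vehicle arrays lay below all wildtype arrays, with a log2 difference of -0.15 ± 0.07 (SE) that did not pass (limma adjusted p = 0.086) except without wildtype replicate 2 (-0.16, limma adjusted p = 0.0452) or with array quality weights (-0.17, limma adjusted p = 0.0219). The other probe sets had differences of -0.08 (1423181_s_at) and -0.04 (1427548_a_at). Probe set 1423181_s_at had a difference of 0.13 ± 0.06 in SMA ceftriaxone against SMA vehicle, with groups that did not overlap (limma adjusted p = 0.125). It passed without wildtype replicate 2, with only those groups in the fit and with array quality weights (limma adjusted p = 0.049, 0.0485 and 0.0469). The mean of the 3 probe sets gave -0.09 ± 0.05 in SMA vehicle against wildtype (limma adjusted p = 0.188). All 3 Clns1a probe sets had differences below 0 in that comparison.

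**Figure D3:**
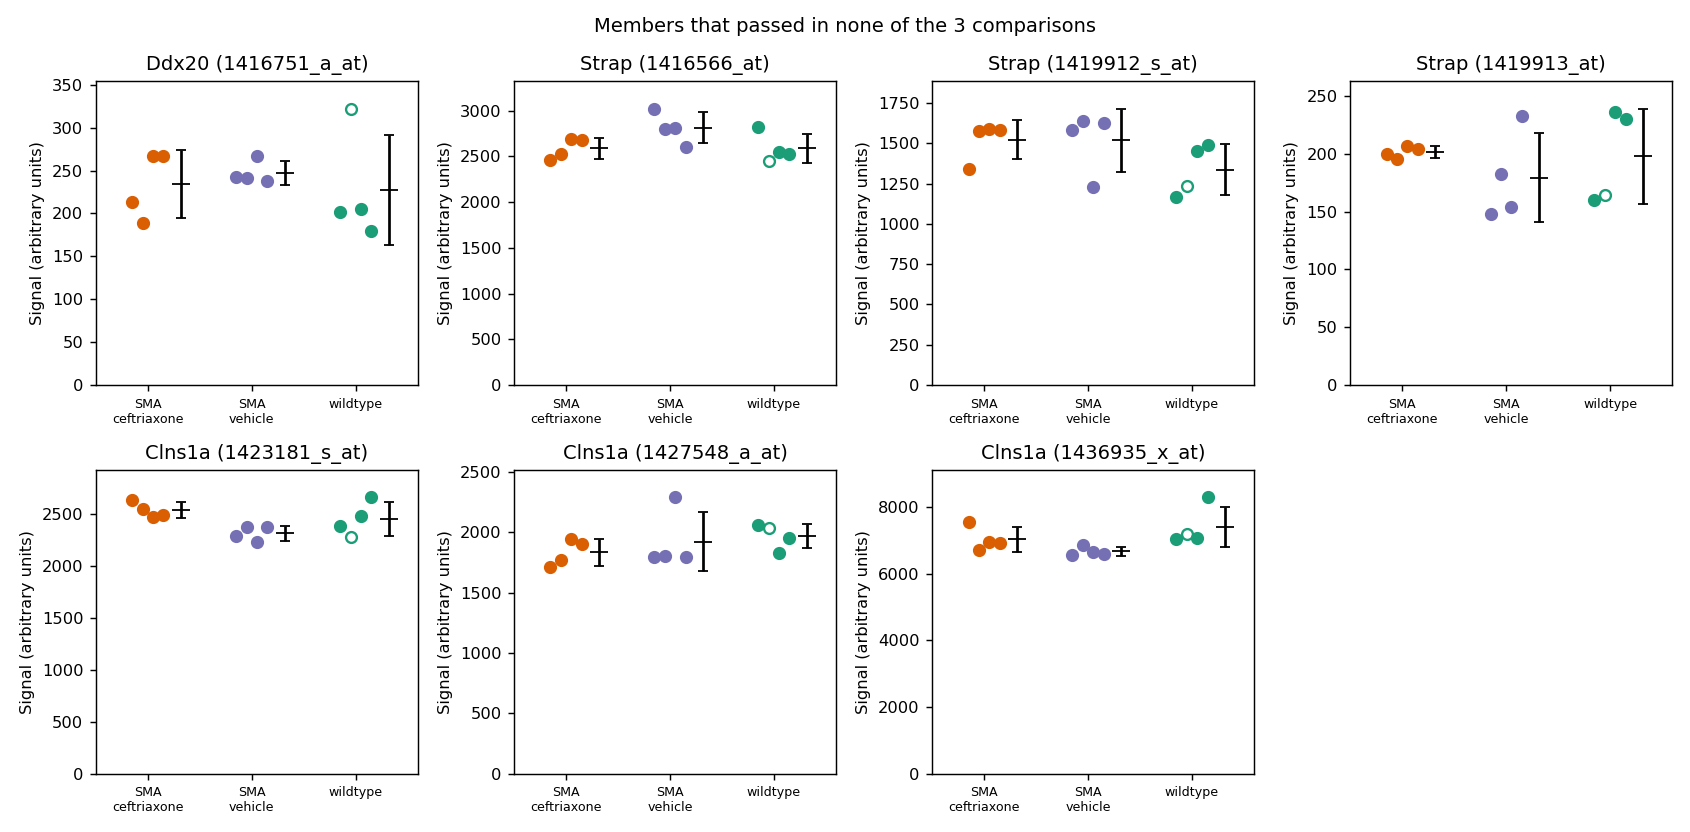
Signal of the probe sets of Ddx20, Strap and Clns1a on each array in SMA ceftriaxone, SMA vehicle and wildtype cords (points are arrays, bars are mean and SD with n = 4, the open circle is wildtype replicate 2). The groups overlap in most panels, and for Ddx20 the highest array is wildtype replicate 2, at 322.2.

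Counted over the 11 member probe sets that passed the filter, 4 were higher and 0 lower in SMA vehicle against wildtype, where 24.9% and 22.3% of all 13575 probe sets were called higher and lower. Between SMA ceftriaxone and SMA vehicle, 0 were higher and 4 lower, against 18.3% and 17.7% of all probe sets. Between SMA ceftriaxone and wildtype, limma called 0 of 11, against 3.29% higher and 0.928% lower over all, and 0 of 11 had an unadjusted p under the threshold of 0.05. The median log2 difference of the 11 was 0.15, -0.08 and 0.05 in SMA vehicle against wildtype, SMA ceftriaxone against SMA vehicle and SMA ceftriaxone against wildtype, where that of all kept probe sets was 0.01, -0.01 and 0.01. Against backgrounds of this size, counts of 4 of 11 are not a result about the members as a group.

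Without wildtype replicate 2, 5 of the 11 were higher and 1 lower in SMA vehicle against wildtype, where 30.9% and 27.5% of all probe sets were called. The additions were Ddx20 as higher and Clns1a 1436935_x_at as lower. Between SMA ceftriaxone and SMA vehicle, 1 (Clns1a 1423181_s_at) was higher and 4 lower, against 24.6% and 25.6% of all. For SMA ceftriaxone against wildtype, limma again called 0, against 6.29% higher and 4.27% lower over all.

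**Figure D4:**
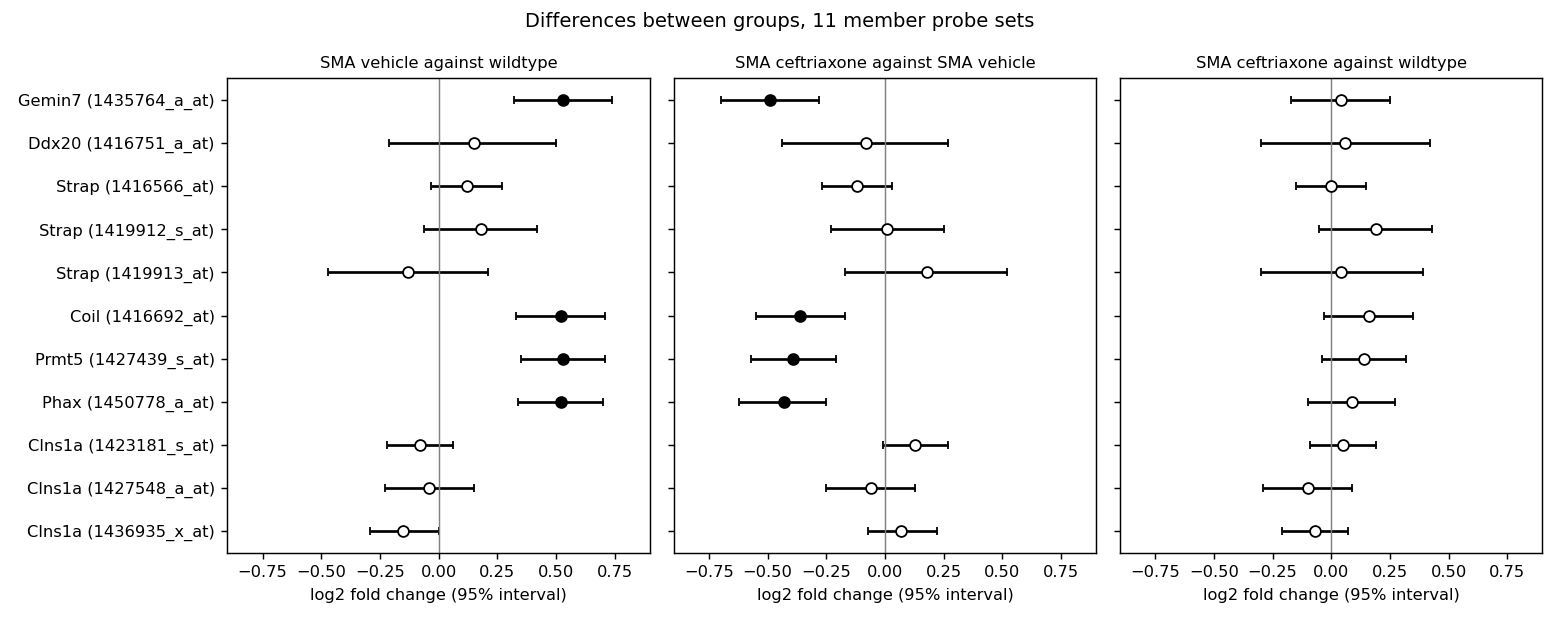
Log2 fold change with its 95% interval for the 11 member probe sets that passed the filter, in the 3 comparisons (filled circles passed limma's adjusted threshold of 0.05, open circles did not). Gemin7, Coil, Prmt5 and Phax lie at 0.52 to 0.53 in SMA vehicle against wildtype and at -0.49 to -0.36 in SMA ceftriaxone against SMA vehicle.

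Within groups, some members varied together and others in opposite directions. Over the 12 arrays, deviations from the group means correlated at 0.707 between Coil and Prmt5, 0.515 between Gemin7 and Coil and 0.139 between Gemin7 and Phax. Over all pairs of member probe sets they ran from -0.783 (Ddx20 and Clns1a 1423181_s_at) to 0.777 (Smn1 and Prmt5). Probe sets of the same gene also differed: Clns1a 1423181_s_at correlated at -0.574 with 1427548_a_at and at 0.725 with 1436935_x_at. These values describe arrays that share their scaling and RNA preparation. They include wildtype replicate 2, which had the highest wildtype signal for Smn1, Prmt5, Coil and Ddx20. For Clns1a 1423181_s_at it had the lowest wildtype signal. The correlations without that array were not computed. All SMA signals of Smn1 also lay below the offset of 16.

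Other genes of the assembly route were called in both directions, in numbers near or below the share of all probe sets. These counts are therefore not a result about the list as a group. The list held 29 genes, of which 24 had 44 probe sets past the filter. Between SMA vehicle and wildtype, 9 probe sets were higher and 6 lower (median log2 difference -0.01), where 24.9% and 22.3% of all kept probe sets were called. The counts in SMA ceftriaxone against SMA vehicle were 3 higher and 8 lower (median -0.12), against 18.3% and 17.7% of all. Without wildtype replicate 2 the counts were 14 and 7 in the first comparison, against 30.9% and 27.5% of all, and 5 and 12 in the second, against 24.6% and 25.6%. Limma called 0 of the 44 in SMA ceftriaxone against wildtype, against 3.29% higher and 0.928% lower over all. Without wildtype replicate 2 it again called 0, against 6.29% and 4.27%.

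Of the SMN complex and its methyltransferase partner, Gemin2, which binds SMN and the Sm ring, had signals of 140.9 to 160.2 in SMA ceftriaxone, 118.1 to 158.8 in SMA vehicle and 114.7 to 217.7 in wildtype arrays. Its log2 difference in SMA vehicle against wildtype was -0.07 (limma adjusted p = 0.753). Gemin8, which links Gemin7 to SMN, had 0.29 on a probe set below the filter and -0.02 on 1451400_at, with overlapping groups on both. Wdr77, the partner of Prmt5 in the methyltransferase complex, was higher in SMA vehicle cords on 1434552_at (0.35, limma adjusted p = 0.00901), while its other probe sets had 0.18 and 0.16 and did not pass (without wildtype replicate 2, 1422844_a_at passed with 0.25 and a limma adjusted p of 0.0213). Wdr77 on 1434552_at had signals of 642.2 to 822.4 in SMA ceftriaxone, 771.7 to 819.0 in SMA vehicle and 558.3 to 707.9 in wildtype arrays, and its difference between SMA ceftriaxone and SMA vehicle was -0.08 (limma adjusted p = 0.529). Gemin5 and Snupn were not analysed here.

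The 4 genes of smallest p on the list were Ice1, Wrap53, Pih1d1 and Ncbp2. Ice1 encodes a subunit of the little elongation complex, which takes part in the transcription of snRNA genes. Ice1 signals were 632.8, 560.7, 563.8 and 552.2 in SMA ceftriaxone, 882.2, 857.8, 984.6 and 1032.4 in SMA vehicle, and 550.5, 626.9, 530.2 and 440.0 in wildtype arrays. Ice1 rose by 0.80 in SMA vehicle against wildtype (limma adjusted p = 5.45e-05) and fell by 0.68 in SMA ceftriaxone against SMA vehicle (limma adjusted p = 0.00038). Pih1d1, a subunit of a cochaperone complex, rose by 0.58 and fell by 0.62 in the same comparisons (limma adjusted p = 0.00109 and 0.00124). Wrap53, which guides small RNAs to Cajal bodies, fell by 0.54 in SMA vehicle against wildtype (limma adjusted p = 0.00107) and rose by 0.35 in SMA ceftriaxone against SMA vehicle (limma adjusted p = 0.0223). Ncbp2, the small subunit of the nuclear cap-binding complex, fell by 0.39 in SMA vehicle against wildtype on 1423045_at (limma adjusted p = 0.00117) and had 0.18 in SMA ceftriaxone against SMA vehicle (limma adjusted p = 0.0863; 0.0495 without wildtype replicate 2). On 1423046_s_at it fell by 0.30 and rose by 0.22 in these comparisons (limma adjusted p = 0.00256 and 0.0248), and on 1450847_at it passed in neither, with -0.23 and 0.02. Ice2, another subunit of the little elongation complex, was singled out after its values were seen, since it moved opposite to Ice1. On 1426536_at Ice2 fell by 0.86 in SMA vehicle against wildtype (limma adjusted p = 0.00502) and rose by 0.66 in SMA ceftriaxone against SMA vehicle (limma adjusted p = 0.0292). Wildtype replicate 2 had 436.7 on this probe set, against 188.6 to 208.3 on the other wildtype arrays. Without it the difference against wildtype was -0.59 (limma adjusted p = 0.000968). Another Ice2 probe set, 1426537_at, lay below the filter and passed in neither comparison, with -0.55 and 0.31 (limma adjusted p = 0.123 and 0.438).

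The Sm proteins, which the complex loads onto snRNA, depended on wildtype replicate 2. Of 8 probe sets of 5 genes, 2 were higher and 0 lower in SMA vehicle against wildtype, both of Snrpd3, where 24.9% and 22.3% of all kept probe sets were called. Without that array 7 were higher and 0 lower, against 30.9% and 27.5% of all. Snrpe had signals of 3857.3 to 4256.3 in SMA ceftriaxone and 4585.1 to 5061.7 in SMA vehicle arrays, against 3496.1, 7193.9, 3731.8 and 3322.6 in wildtype arrays. The array with thymocyte markers was thus the brightest of all for Snrpe, and the other 3 wildtype arrays were the dimmest. Snrpg on 1448358_s_at had 3765.5 to 4161.0 in SMA vehicle arrays, against 5228.8 on wildtype replicate 2 and 2967.1 to 3160.5 on the other wildtype arrays. Snrpb had 2123.1 to 2233.5 in SMA vehicle arrays, against 3208.7 on wildtype replicate 2 and 1668.9 to 1813.1 on the others. Snrpd3 on 1449629_s_at was lowest on wildtype replicate 2, at 400.4, and rose by 0.57 in SMA vehicle (limma adjusted p = 0.000601) and by 0.46 in SMA ceftriaxone (limma adjusted p = 0.0275) against wildtype. On 1422885_at these differences were 0.41 and 0.38, and only the first passed (limma adjusted p = 0.00472 and 0.0556). On 1422884_at, where wildtype replicate 2 was highest (2097.9), they were 0.33 and 0.04 and did not pass (limma adjusted p = 0.105 and 0.916). Between SMA ceftriaxone and SMA vehicle, 0 of the 8 were higher and 1 lower (18.3% and 17.7% of all), and without wildtype replicate 2 the counts were 0 and 4 (24.6% and 25.6% of all). Against wildtype, 1 was higher in SMA ceftriaxone cords (3.29% of all), and 4 without that array (6.29% of all).

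The genes that neighbour Smn1 were examined because they are linked to the targeted allele. Of the 12 nearest protein-coding genes on each side, 9 had 13 probe sets past the filter. In SMA vehicle against wildtype 5 of these were higher and 1 lower, both with all arrays (24.9% and 22.3% of all kept probe sets) and without wildtype replicate 2 (30.9% and 27.5%). In SMA ceftriaxone against SMA vehicle 0 were higher and 3 lower (18.3% and 17.7% of all), and without that array 2 and 4 (24.6% and 25.6%). Of the 13, 1 was higher and 0 lower in SMA ceftriaxone against wildtype (3.29% and 0.928% of all), and without that array 2 and 0 (6.29% and 4.27%). With all arrays, the 3 lower ones in SMA ceftriaxone against SMA vehicle belong to Serf1, the gene next to Smn1, which encodes a small charged protein. Serf1 on 1434291_a_at had signals of 242.9, 190.1, 301.9 and 196.2 in SMA ceftriaxone, 490.8, 628.4, 632.0 and 842.7 in SMA vehicle, and 247.1, 258.6, 252.2 and 220.2 in wildtype arrays. It rose by 1.33 in SMA vehicle against wildtype (limma adjusted p = 3.09e-05) and fell by 1.41 in SMA ceftriaxone against SMA vehicle (limma adjusted p = 7.43e-05). On this probe set the SMA vehicle arrays lay above all others, and SMA ceftriaxone and wildtype overlapped. Serf1 rose by 1.28 on 1449509_at and by 0.86 on 1454908_x_at in SMA vehicle against wildtype. Another Serf1 probe set, 1454907_at, lay below the filter and had 0.18 with overlapping groups (limma adjusted p = 0.715). On 1454908_x_at SMA ceftriaxone and wildtype did not overlap (144.7 to 181.7, against 83.4 to 142.6). Their difference of 0.42 did not pass (limma adjusted p = 0.144), and without wildtype replicate 2 it was 0.51 and passed (limma adjusted p = 0.0469).

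Cartpt, a neuropeptide precursor gene in the same neighbourhood, was high in both SMA groups. Its signals were 815.3, 806.0, 837.0 and 677.1 in SMA ceftriaxone, 990.4, 982.3, 838.8 and 911.5 in SMA vehicle, and 342.4, 250.7, 402.5 and 481.8 in wildtype arrays. It rose by 1.33 in SMA vehicle (limma adjusted p = 1.98e-05) and by 1.09 in SMA ceftriaxone (limma adjusted p = 0.00379) against wildtype. Map1b, which binds microtubules in growing axons, rose by 1.08 in SMA vehicle on 1450397_at (limma adjusted p = 0.00279), while its other probe sets had 0.30 and -0.25 and did not pass. Without wildtype replicate 2, Map1b on 1421851_at passed in the opposite direction, with -0.35 (limma adjusted p = 0.0378). Rad17, a DNA damage checkpoint gene, fell by 0.32 in SMA vehicle against wildtype (limma adjusted p = 0.0337) with groups that overlapped, and did not pass without wildtype replicate 2 (-0.21, limma adjusted p = 0.0579). On the other side of Smn1, the probe sets of Naip2, Naip5 and Naip6, related genes of innate immunity, lay below the filter.

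**Figure D5:**
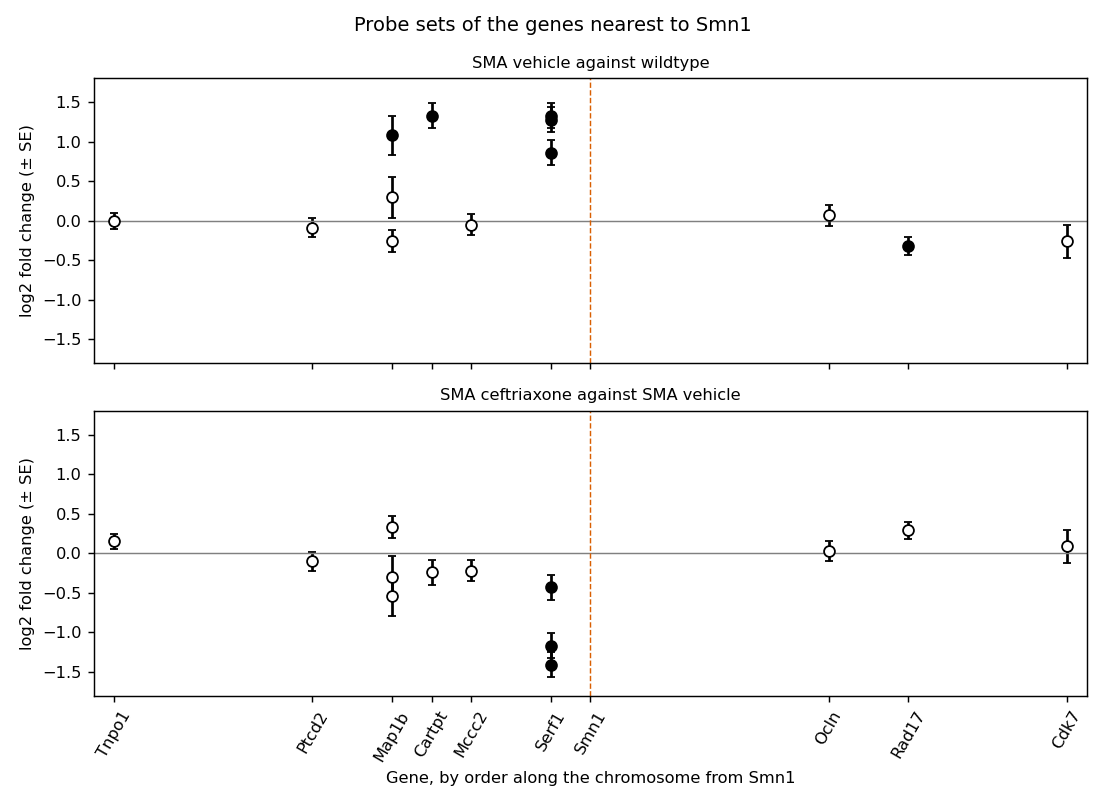
Log2 fold change (± SE) of the 13 probe sets of genes nearest to Smn1, in order along the chromosome, for SMA vehicle against wildtype (upper) and SMA ceftriaxone against SMA vehicle (lower); filled circles passed limma's adjusted threshold of 0.05 and the dashed line is Smn1. Serf1 reaches 1.33 in the upper panel and -1.41 in the lower one.

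The genes whose pattern was most like that of Smn1 were Pcbd2, Mrps21, Dffa, Txndc17 and Timm8a1, with Pearson correlations of log2 signal of 0.972, 0.963, 0.962, 0.951 and 0.939 over the 12 arrays. These genes were chosen for this pattern, which is given as a description, and the arrays share their genotypes. The changes were small beside that of Smn1. Dffa, the inhibitor of an apoptotic nuclease, had signals of 394.6 to 475.3 in SMA ceftriaxone, 400.5 to 452.0 in SMA vehicle and 649.7 to 744.9 in wildtype arrays. Its log2 difference was -0.68 in SMA vehicle and -0.72 in SMA ceftriaxone against wildtype, with no overlap in either. Pcbd2, an enzyme of biopterin recycling, had 408.2 to 448.9 in SMA ceftriaxone, 376.5 to 417.4 in SMA vehicle and 539.8 to 590.0 in wildtype arrays. For the other 3 genes as well, all SMA arrays lay below all wildtype arrays.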

How the data were processed

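Spinal cord RNA was measured on 1-colour expression arrays, 4 per group. The deposited values are linear signal intensities, 1 for each probe set, made with MAS5 per the submitters' processing notes. The version of MAS5 is not given in the sources. The arrays had been scaled: the mean signal, with 2% trimmed at each end, was 700.2 to 700.3 on the arrays. Detection calls were not used here. Gene symbols are those of the platform annotation, brought up to date by gene identifier with RefSeq (GRCm38.p6). After 64 control probe sets were removed, 22626 remained. The offset 16 was added to the intensity before log2, and probe sets with a mean log2 value above the 40th percentile were kept (13575). Groups were compared with limma 3.58.1 in R 4.3.3 with all 12 arrays in a single linear model, an empirical Bayes step with a trend on intensity, and 9 residual degrees of freedom. Two-sided p-values were adjusted with Benjamini-Hochberg over all kept probe sets, with a threshold of 0.05. The 95% intervals are those of the moderated fit, unadjusted. Smn1 did not pass the filter and was taken from an equal fit of all 22626 probe sets. The fit was tested on simulated data.

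All 12 member probe sets were described. Of each other list, the 4 genes of smallest p in SMA vehicle against wildtype were named, and 5 further genes of the assembly route (Gemin2, Gemin5, Gemin8, Wdr77 and Snupn) whatever their values. The 5 genes most like Smn1 were named by Pearson correlation. The members and lists were chosen with earlier results of these data known. The following alternatives were tried: other offsets (1 and 64), median centring or quantile normalization, a filter at percentile 60 or none, a fit without the trend, array weights, a fit of only those groups being compared, a block for replicate number, a covariate (Xist signal, or Gapdh 3 prime over 5 prime signal), gene means over probe sets, and each array left out in turn. Deviations from the group means correlated at -0.143 to 0.133 between arrays with the same replicate number, so the numbers were not taken to pair the samples.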

Additional observations from a re-analysis of the deposited data

Results flagged for a closer look

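Dixon's test was run on 105 groups of 4 arrays, from 35 of the probe sets named. Of these groups, 13 had 1 array far from the other 3, where chance flags about 5% of groups. Members account for 6 of these 13. The cell markers, the Ice2 probe sets and the further probe sets given for Ncbp2, Snrpd3, Serf1 and Map1b were not tested. On Smn1, SMA vehicle replicate 4 had 5.7, against 3.6 to 3.9 on the others. SMA vehicle replicate 3 was apart on 3 member probe sets: it was highest for Ddx20 (267.6, against 237.3 to 242.1) and for Clns1a 1427548_a_at (2288.7, the others at most 1807.2), and lowest for Strap 1419912_s_at (1229.2, the others at least 1585.4). Strap on the same probe set was lowest on SMA ceftriaxone replicate 1 (1340.6). Clns1a 1436935_x_at was highest on wildtype replicate 4 (8290.3).

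Wildtype replicate 2, the array with thymocyte markers, was apart on 4 of the probe sets tested: Snrpe (7193.9), Snrpg (5228.8), Snrpb (3208.7) and Pih1d1 (592.8), each the highest of its group. SMA vehicle replicate 3 was highest for Ncbp2 (763.2). SMA ceftriaxone replicate 1 was highest for Ice1 (632.8) and Dffa (475.3).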

How the results depend on the processing

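Of 876 values of the 12 member probe sets under alternatives, 868 kept their side of the threshold, 8 newly passed (on Ddx20, Strap and Clns1a), 0 lost a call and 0 called values reversed; 29 changed sign with neither value past the threshold. Gemin7, Prmt5, Coil and Phax passed under 96 of 96 alternatives in SMA vehicle against wildtype (log2 differences 0.44 to 0.60) and under 96 of 96 in SMA ceftriaxone against SMA vehicle (-0.53 to -0.29). Ddx20 and Strap 1419913_at have no value under the 60th percentile filter. The counts of calls moved more, and the causes were not tested. In SMA vehicle against wildtype, array weights gave 24 for the other assembly route (15 in the report) and 7 for the Sm ring (2 in the report), and the 60th percentile filter gave 1 for the Sm ring. In SMA ceftriaxone against SMA vehicle, the other assembly route (11) had 21 with array weights and 4 with the Xist covariate. The Sm ring (1) had 3 with only the groups compared, 4 with array weights and 0 with Xist. The Smn1 neighbours (3) had 1 under the 60th percentile filter, 7 with only the groups compared and 6 with array weights. In SMA ceftriaxone against wildtype, calls over all probe sets (572) were 236 with median centring, 111 with only the groups compared, 1826 with array weights, 80 with Xist and 213 with the Gapdh ratio. Without a filter, 1 member (Smn1) was called there. Array weights gave 2 for the other assembly route (0), 3 for the Sm ring (1) and 2 for the neighbours (1). For the Sm ring, a fit without the trend gave 2, and quantile normalization, median centring, only the groups compared, Xist and the Gapdh ratio each gave 0. The replicate block gave 344 calls over all probe sets and 0 for the Sm ring in SMA ceftriaxone against wildtype, and it changed no call on a member. Leaving out 1 array at a time, the counts in SMA vehicle against wildtype ranged over 5505 to 7932 for all probe sets, 4 to 6 for members, 12 to 21 for the other assembly route and 2 to 7 for the Sm ring. In SMA ceftriaxone against SMA vehicle they ranged over 3725 to 6814, 4 to 5, 5 to 17 and 0 to 4 for the same lists, and 2 to 6 for the neighbours. In SMA ceftriaxone against wildtype they ranged over 164 to 1434, 0 to 0, 0 to 0 and 0 to 4, and 1 to 2 for the neighbours. The highest of these counts came without wildtype replicate 2 for all probe sets in SMA ceftriaxone against wildtype, for the other assembly route and for the Sm ring against wildtype. The lowest were 164 without SMA ceftriaxone replicate 3 and 5 without SMA vehicle replicate 3. The number of arrays limits the precision: the median SE of a log2 difference was 0.12.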
